A study of Mus musculus with 4 samples.

Results

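The nuclear respiratory chain genes were all genes of the count matrix whose symbols matched the patterns Nduf followed by a, b, c, s or v and a number, Sdha to Sdhd, Uqcr, Cox4 to Cox8, or Atp5. The patterns took 83 of 31053 genes: 35 of complex I, 4 of complex II, 8 of complex III, 19 of complex IV with Ndufa4, and 17 of complex V. They were chosen by symbol and not by any measured value. A gene counted as measured in a cell type with at least 50 UMIs (unique molecular identifiers, 1 per captured transcript) in the library where it was higher. By that measure 79 genes were measured in at least 1 of 18 cell types and 41 in all of them. The other 4 were Cox7b2, Cox8b, Cox8c and Atp5o. Cox8c and Atp5o had 0 UMIs, which allows up to 0.00949 UMIs per 1000000 UMIs (CPM) over the matrix. The counts of ATP synthase subunit O stood under a second entry, Atp5o.1, since the annotation holds overlapping genes of that name, and they are uncertain for that reason.

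The respiratory chain sits in the inner mitochondrial membrane. Complex I (NADH dehydrogenase) and complex II (succinate dehydrogenase) pass electrons from NADH and succinate to ubiquinone, complex III passes them to cytochrome c and complex IV (cytochrome c oxidase) to oxygen, and complex V (ATP synthase) uses the resulting proton gradient to make ATP. Most subunits are encoded in the nucleus, and a smaller set in mitochondrial DNA. Heart muscle is known for dense mitochondria and for its own isoforms of several complex IV subunits, whereas mature neutrophils rely largely on glycolysis.

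The study sequenced single cells of mouse fetuses labelled as lung, 1 library per group. All fetuses were labelled Cyp27a1-/-, for the gene of the sterol 27-hydroxylase that makes 27-hydroxycholesterol, and as grown in a Cyp27a1+/- mother (heterozygous below) or in a Cyp27a1-/- mother (null below). They were taken at E14.5 or at E18.5. One title, of the heterozygous mother's E18.5 library, reads as wild type; here the group follows the genotype field instead. Cyp27a1 transcripts were counted in every library, with 18.7 CPM (heterozygous mother) and 19.7 CPM (null mother) in the E14.5 pair, then 38.5 CPM and 37.3 CPM in the E18.5 pair. Which part of the gene the allele lacks is not given in the sources used here, so these counts check no label. With 1 library on each side no test was possible. Mother's genotype, litter, pooling of fetuses and preparation cannot be told apart, and all intervals are 95% intervals that cover counting error only. Below, a pair of values gives the heterozygous mother first and the null mother second.

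The libraries held 4957 and 4843 cells at E14.5 and 17034 and 16517 cells at E18.5, with 47005276 to 118054232 UMIs each. The median cell was deeper with the null mother at both ages, with 3697 against 6387 UMIs at E14.5 and 3782.5 against 4848 at E18.5. The libraries labelled E18.5 held almost no lung epithelial transcripts. Nkx2-1, the transcription factor of lung epithelium, was at 41.2 and 52.6 CPM at E14.5 but at 0.0409 and 0.00847 CPM at E18.5, where albumin (Alb) reached 2905 and 8344 CPM. Their cell types are those of fetal liver and blood, and nothing below about E18.5 describes lung. Pairs of libraries shared 93 to 164 cell barcodes. By Xist and Y-linked transcripts, 5395 cells read as male and 22 as female at E18.5 with the heterozygous mother, against 3875 and 4411 with the null mother, so the sexes were unevenly matched there.

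Cells were sorted into types by counting how many marker genes of a list each expressed, and none of the 83 genes is a marker. At E14.5 the types were epithelium (319 cells with the heterozygous and 489 with the null mother), mesenchyme (1259 and 1156), smooth muscle (269 and 289), endothelium (192 and 370), heart muscle (82 and 37) and macrophages (36 and 61). At E18.5 they were hepatocytes (615 and 1956), endothelium (339 and 334), mesenchyme (53 and 41), macrophages (305 and 333), monocytes (472 and 517), early (508 and 845), middle (169 and 270) and late (2973 and 2266) neutrophils, B cell precursors (2088 and 2042), basophils and mast cells (75 and 47), megakaryocytes (95 and 65) and erythroid cells (3966 and 3161). The middle neutrophil precursors had no marker list of their own. Cells that met no list made up 18% to 54% of a library.

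Heart muscle carried by far the highest share of respiratory chain transcripts among the E14.5 types. The 83 genes took 6.04% of its UMIs with the heterozygous mother (5.98% to 6.11%) and 7.19% with the null mother (7.08% to 7.30%). Endothelium followed with 3.07% and 3.19%. Epithelium (2.44% and 2.63%), mesenchyme (2.45% and 2.59%), smooth muscle (2.49% and 2.58%) and macrophages (2.61% and 2.58%) lay close together, and their order differed between the libraries. No other type overlapped heart muscle in either library.

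At E18.5 hepatocytes stood highest, with 3.28% and 3.68% of UMIs, and late neutrophils lowest, with 1.18% and 1.23%. Megakaryocytes (2.89% and 3.12%) and B cell precursors (2.64% and 2.89%) came next to hepatocytes. Monocytes (2.52% and 2.81%), early neutrophil precursors (2.51% and 2.59%), erythroid cells (2.41% and 2.68%), mesenchyme (2.37% and 2.43%), basophils and mast cells (2.28% and 2.41%) and endothelium (2.27% and 2.42%) formed a middle group whose neighbours were not ordered alike in both libraries. Macrophages (2.06% and 2.26%) and middle neutrophil precursors (1.82% and 1.81%) lay below them. In erythroid cells haemoglobin took 24.3% and 19.7% of UMIs, and without it their share was 3.19% and 3.33%. The median erythroid cell had a lower share, 1.28% and 1.46%. Their place among the 12 types thus depended on the counting. With a total without haemoglobin and mitochondrially encoded genes they ranked 2 in both libraries. As a mean over cells they ranked 11 and 10, with 1.64% and 1.82%.

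**Figure D1:**
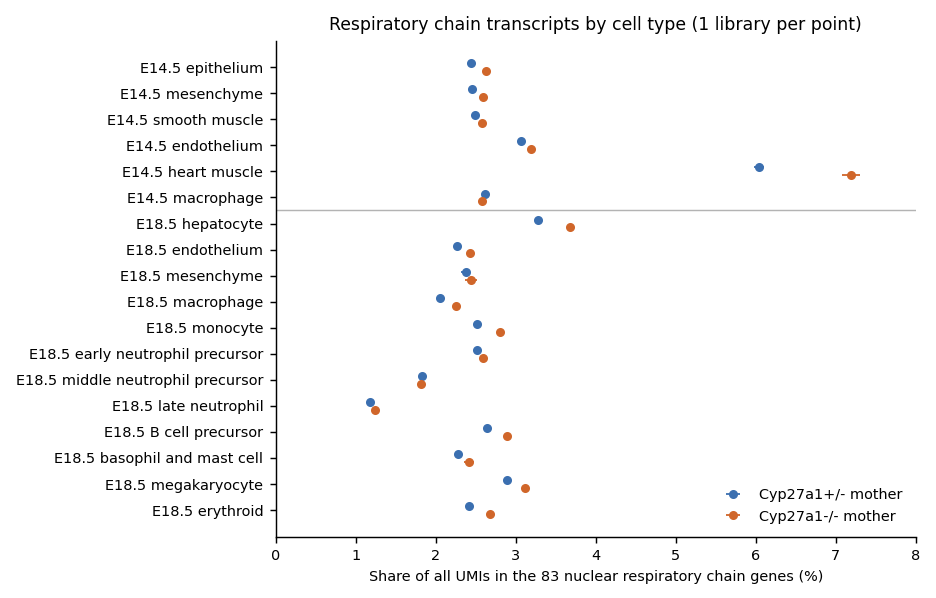
Share of all UMIs that fell on the 83 nuclear respiratory chain genes (x axis, percent) in each cell type (y axis), 1 point per library with its exact 95% counting interval. Heart muscle lies at 6.04% and 7.19%, late neutrophils at 1.18% and 1.23%, and all other types except the middle neutrophil precursors (1.82% and 1.81%) lie between 2.06% and 3.68%.

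All 5 complexes were high in heart muscle. Over all libraries the member with the most UMIs was Ndufb9 (134291) in complex I, Sdhb (49850) in II, Uqcrh (189057) in III, Cox4i1 (362635) in IV and Atp5b (244464), the catalytic beta subunit, in V. Complex I took 1.62% and 1.87% of UMIs, complex II 0.134% and 0.145%, complex III 0.606% and 0.781%, complex IV 1.72% and 2.08%, and complex V 1.96% and 2.31%. Set against the median of the other 5 types, this was 2.16 and 2.36 times for complex I, 2.68 and 3.00 times for complex II, 2.69 and 3.19 times for complex III, 2.68 and 3.05 times for complex IV, and 2.39 and 2.76 times for complex V. The excess was thus spread over the whole chain, with complex I the least raised in both libraries.

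Between types, a gene counted as measured only with at least 50 UMIs in its highest type in each library. Heart muscle held 546173 and 229439 UMIs, the fewest of these types, so a gene highest there needed a higher CPM to be measured. Gene by gene, 66 of 74 members measured in this way were at least 1.5 times their median over the E14.5 types in both libraries. The share of all genes so measured was 5.64%. The 66 members were spread over the complexes. They were 29 of 33 genes of complex I, 3 of 3 of complex II, 8 of 8 of complex III, 12 of 15 of complex IV and 14 of 15 of complex V. Ndufs1, which encodes the largest iron-sulphur subunit of complex I, had the widest range of its complex. It was at 236 and 266 CPM in heart muscle and at 48.5 to 74.6 CPM in the other types, 4.10 and 4.89 times its median. Atp5g1, 1 of 3 genes for subunit c of the ATP synthase rotor, was at 1842 and 2432 CPM in heart muscle, 2.81 and 4.04 times its median, and the Rieske iron-sulphur gene Uqcrfs1 of complex III was 2.91 and 3.51 times its median. Sdhb, the iron-sulphur subunit of complex II, was at 577 and 689 CPM there and between 184 and 281 CPM elsewhere. The members that did not reach the fold were Ndufa2, Ndufa3, Ndufa7, Ndufs8, Cox4i2, Cox6b2, Cox7a2l and Atp5g2.

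Some other mitochondrial and metabolic genes were high in heart muscle too. By the same rule all 11 measured mitochondrially encoded subunits were higher, as were 7 of 7 tricarboxylic acid cycle enzymes and 10 of 12 glycolytic enzymes. Called higher were 0 of 8 regulators of mitochondrial biogenesis, 1 of 12 assembly factors of the complexes and 4 of 54 mitochondrial ribosomal proteins. Cytosolic ribosomal proteins gave 0 of 80, and the share of all genes was 5.64%. Of the cytosolic ribosomal genes 48 of 80 were called lower, against 29.4% of all genes. The members were high together with the mitochondrially encoded transcripts and fuel enzymes, while few assembly genes reached the fold.

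The heart muscle cells were few and shallow, with median depths of 1942 and 1745 UMIs, and mitochondrially encoded subunits took 9.59% and 9.75% of their UMIs. Among cells between the quartiles of their depth, heart muscle held 5.03% and 6.29% of UMIs in the 83 genes, against 2.17% and 1.92% in other E14.5 cells. Mitochondrial shares of those cells were 17.5% and 17.5% against 7.50% and 6.83%. Their heart muscle markers, all 10 of 10 detected, summed to 56757 and 49621 CPM, smooth muscle markers (8 of 8) to 2776 and 2327 CPM and endothelial markers (7 and 4 of 11) to 31.1 and 47.9 CPM. The part of depth, mitochondrial share or other cells' RNA in these levels was not tested. Single cells varied widely: the 10th and 90th percentiles were 2.11% and 7.997% with the heterozygous mother and 2.38% and 9.29% with the null mother.

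In hepatocytes complex III stood out. It was 1.78 and 1.82 times the median of the other 11 types, against 1.36 and 1.39 times for complex I, 1.46 and 1.54 for complex II, 1.28 and 1.34 for complex IV and 1.43 and 1.51 for complex V. Uqcrq, a small subunit of complex III, was at 927 and 1043 CPM in hepatocytes and at 136 to 470 CPM in the other types. Ndufs3, a core subunit of complex I, was 2.62 and 2.39 times its median and Cox7b, a small subunit of complex IV, 2.56 and 2.38 times. The 1.5-fold mark was reached in both libraries by 25 of 74 members, against 22% of all genes. By complex these were 10 of 33, 2 of 4, 5 of 8, 3 of 14 and 5 of 15 from I to V. With TMM scaling, which sets the sums of the types by a trimmed mean of gene ratios, 73 of 77 members reached it, against 32.8% of all genes under that scaling. Mitochondrially encoded subunits took 10.6% and 8.79% of hepatocyte UMIs, 3.25 and 2.39 times the nuclear members, and 13 of 13 of them were called higher.

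The respiratory chain share was lower in the middle than in the early neutrophil group, and lowest in the late one. The middle group had no marker list of its own, and no doublet caller was run. Whether it is a stage between the others or holds mixtures of early and late cells was not tested. The middle precursors had 0.726 and 0.701 times the share of early precursors, and late neutrophils 0.645 and 0.681 times that of the middle ones. Late neutrophils had 0.469 (0.465 to 0.472) and 0.477 (0.474 to 0.480) times the share of early precursors. Complex I (0.519 and 0.508) and complex II (0.542 and 0.498) kept the most, complex IV less (0.469 and 0.487), and complex III (0.411 and 0.439) and complex V (0.436 and 0.449) the least. Atp5g1 lay at 824 and 840 CPM in early precursors, at 419.9 and 350.3 CPM in middle ones and at 110.0 and 134 CPM in late neutrophils.

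In late neutrophils 64 of 74 members were at most 1/1.5 of their median over types in both libraries. The background was high, with 39.6% of all genes. The called members were 25 of 33 of complex I, 4 of 4 of complex II, 8 of 8 of complex III, 13 of 14 of complex IV and 14 of 15 of complex V. Lowest against their medians were Atp5g1, at 0.216 and 0.247 times, and Ndufa12, an accessory subunit of complex I, at 0.266 and 0.241 times. In middle precursors 14 of 74 members were called, against 21% of genes. With 1 more marker required these were 3 of 76, against 16.2%. Other lists were low in the same cells: 80 of 81 cytosolic ribosomal and 53 of 58 mitochondrial ribosomal protein genes were called lower in late neutrophils. Glycolytic enzymes, with 5 of 14, were near the background. The result depended on the scaling. With TMM factors the late neutrophils ranked 8 and 9 of 12 types rather than last, at 0.890 and 0.884 of the other types' median, and 11 of 77 members were called, against 18.1% of all genes under that scaling.

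The isoforms of complex IV set heart muscle apart from the other types. Cox6a2 (chr7:128205435-128206387, minus strand, mm10), the heart and skeletal muscle isoform of subunit VIa, gave 648 of 976 COX6A UMIs in heart muscle with the heterozygous mother (66.4%) and 227 of 401 with the null mother (56.6%). In all other E14.5 types it gave at most 0.0942% and 0.230%. In heart muscle its level was 1186 and 989 CPM, whereas E14.5 epithelium had 0 of 1970 and 5 of 3595 COX6A UMIs; the 0 allows a share of up to 0.152%. Cox6a2 lies inside Itgad on the other strand, and Itgad had 24 UMIs in the matrix and 0 in heart muscle. Among the named E18.5 types Cox6a2 was highest in B cell precursors, at 2.61% (69 of 2646) and 2.80% (88 of 3145).

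Cox7a1 and Cox8b, the muscle isoforms of subunits VIIa and VIII, were minor beside their widespread partners. Cox7a1 made 6.71% (49 of 730) and 12.2% (50 of 409) of Cox7a1 and Cox7a2 UMIs in heart muscle, and at most 2.71% in any other E14.5 type, in macrophages with the null mother. Cox8b made 2.21% (26 of 1178) and 6.10% (39 of 639) of COX8 UMIs. Outside heart muscle it was nearly silent, with 72 UMIs in the whole matrix. Cox7a2 and Cox8a thus still held 87.8% or more and 93.9% or more of their families in heart muscle. In level Cox7a1 was at 89.7 and 218 CPM, and it had the largest ratio between the mothers of all measured members in these cells, 2.43 (1.60 to 3.68), on 49 and 50 UMIs.

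Cox6b2, known as the testis isoform of subunit VIb, had its highest share in erythroid cells of the E18.5 libraries. It made 28.3% (5670 of 20045) and 27.6% (5039 of 18271) of COX6B UMIs in erythroid cells, 15.7% and 14.7% in early, 19.1% and 17.99% in middle and 11.3% and 10.6% in late neutrophils. E18.5 mesenchyme had 15.6% and 19.2%, on 21 and 20 Cox6b2 UMIs. Hepatocytes had 1.48% and 2.30%. At E14.5 it was highest in mesenchyme, with 8.85% and 9.25%, and lowest in endothelium, with 0.594% and 0.521%. Erythroid cells held it at 199 and 208 CPM. No other annotated gene overlaps it.

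Cox4i2, the isoform of subunit IV known from lung and smooth muscle, was found chiefly in E14.5 smooth muscle (7.10% and 3.09% of COX4 UMIs), mesenchyme (3.35% and 3.04%) and epithelium (1.01% and 4.01%). Endothelium had 0.0321% and 0.122%. In E18.5 mesenchyme it was at 1.34% and 4.93%. The ubiquitous Cox4i1, with 362635 UMIs the most abundant member of complex IV, held the rest. Between the mothers Cox4i2 was the most divergent member: 11.1 and 46.8 CPM in epithelium, a ratio of 4.24 (3.33 to 5.46), but 95.8 and 40.6 CPM in smooth muscle, a ratio of 0.424 (0.354 to 0.507). These values rest on where the types were divided. With 1 more smooth muscle marker required, the smooth muscle shares were 0.822% and 1.43%, which turned their order, and as a mean over cells the epithelial shares were 1.35% and 2.80%.

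Subunit c of the ATP synthase is encoded by 3 genes whose mature proteins are the same and which differ in their targeting peptides. Atp5g1 gave 58.9% and 59.7% of their UMIs in hepatocytes, 54.6% and 55.7% in erythroid cells and 49.3% and 53.7% in heart muscle, but 26.4% and 27.8% in E18.5 endothelium. Atp5g2 took the converse course, from 26.0% and 20.2% in heart muscle and 24.7% and 26.7% in erythroid cells to 53.8% and 54.1% in E18.5 endothelium. Atp5g3 varied less, from 12.1% to 26.1% over all types and libraries. Of the remaining families, Cox7b held over 99.8% of COX7B UMIs everywhere. Ndufa4, counted here with complex IV, was at 1249 and 1142 CPM in heart muscle and at 205 and 236 CPM in late neutrophils.

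**Figure D2:**
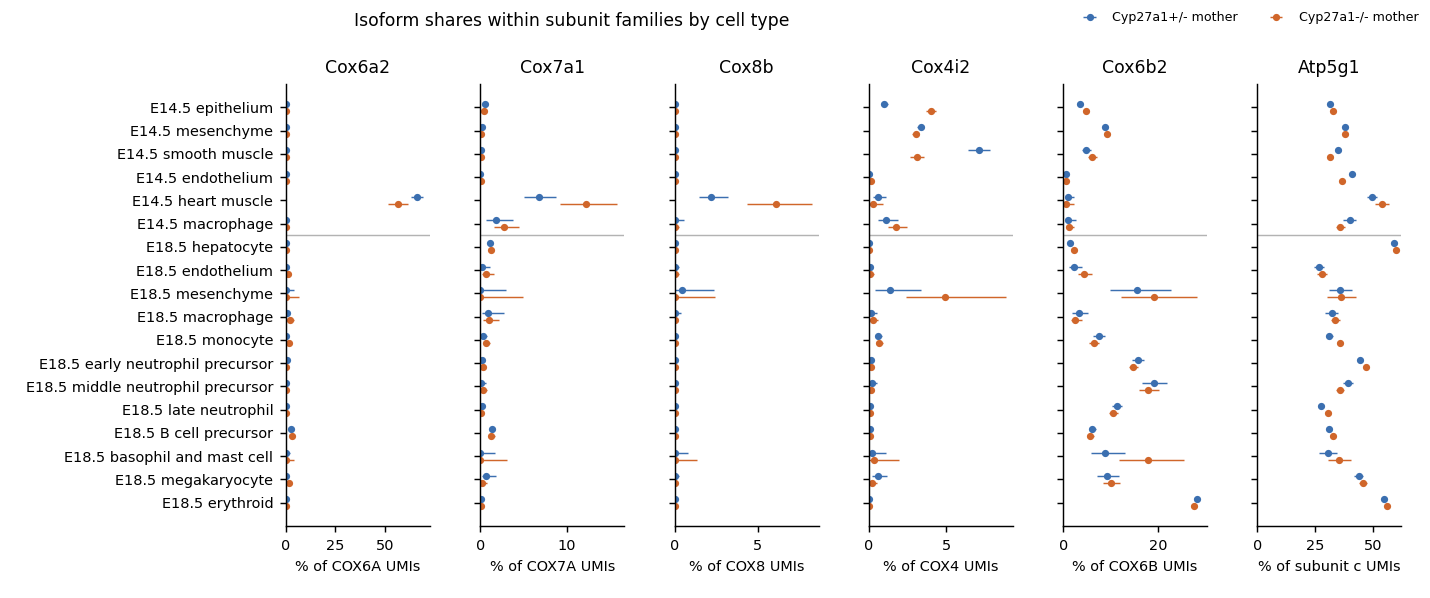
Share of 6 isoforms in the UMIs of their subunit family (x axes, percent, each panel with its own scale) by cell type (y axis), 1 point per library with its exact 95% binomial interval. Cox6a2, Cox7a1 and Cox8b peak in heart muscle, Cox6b2 in erythroid cells (28.3% and 27.6%), and Atp5g1 in hepatocytes (58.9% and 59.7%).

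The bases before the start sites were searched for motifs known from respiratory chain genes. Promoters from RefSeq (GRCm38.p6) were matched by symbol to 66 of the 83 genes, and 250 bases upstream of the start were searched on both strands. The nuclear respiratory factor 1 motif (GCGCA, any base, GCGC) was in 12 of them (18.2%) against 3.86% of all 27025 promoters, and the ETS motif CCGGAAG in 11 (16.7%) against 7.05%. The estrogen-related receptor motif TNAAGGTCA was in 2 (3.03% against 1.14%), the YY1 motif AANATGGCG in 1 (1.52% against 1.12%), TATAAA in 6 (9.09% against 12.97%) and the MEF2 motif in 0 (against 3.01%). No 2 motifs overlapped within a member. Atp5h, Cox6a1 and Sdhd held both the nuclear respiratory factor 1 and the ETS motif. Members had a median GC content of 55.6% against 52% for all promoters. These are matches of letters only. Shown 5′ to 3′ on the gene's strand are the widespread Cox6a1 and Sdhd with both motifs, then the partners Cox6b1 and Cox6b2 and the heart isoform Cox8b, with motif letters in capitals. Capitals read CTTCCGG where the ETS motif lies on the other strand, and the others mark the nuclear respiratory factor 1 motif. They span chr5:115348959-115349208, chr9:50603850-50604099, chr7:30626115-30626364, chr7:4753095-4753344 and chr7:140900447-140900696, all on the minus strand.
Cox6a1: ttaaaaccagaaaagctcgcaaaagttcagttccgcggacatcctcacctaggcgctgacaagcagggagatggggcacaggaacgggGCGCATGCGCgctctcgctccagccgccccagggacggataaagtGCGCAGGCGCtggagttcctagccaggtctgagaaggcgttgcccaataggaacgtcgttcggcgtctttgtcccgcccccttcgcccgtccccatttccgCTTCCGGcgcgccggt
Sdhd: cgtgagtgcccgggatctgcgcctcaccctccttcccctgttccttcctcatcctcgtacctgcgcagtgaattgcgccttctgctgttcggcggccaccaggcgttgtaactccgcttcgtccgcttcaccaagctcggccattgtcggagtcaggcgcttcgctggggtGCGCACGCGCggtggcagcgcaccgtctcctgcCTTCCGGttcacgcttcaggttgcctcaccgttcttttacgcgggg
Cox6b1: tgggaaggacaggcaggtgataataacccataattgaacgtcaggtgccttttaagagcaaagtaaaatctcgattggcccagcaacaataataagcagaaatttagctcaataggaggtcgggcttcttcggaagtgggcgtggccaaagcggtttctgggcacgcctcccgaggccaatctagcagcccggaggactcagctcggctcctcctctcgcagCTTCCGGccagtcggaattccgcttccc
Cox6b2: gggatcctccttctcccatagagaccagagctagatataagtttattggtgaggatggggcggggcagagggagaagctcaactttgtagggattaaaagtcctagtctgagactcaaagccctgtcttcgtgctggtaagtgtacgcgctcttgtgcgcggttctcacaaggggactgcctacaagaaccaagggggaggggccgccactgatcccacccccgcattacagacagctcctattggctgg
Cox8b: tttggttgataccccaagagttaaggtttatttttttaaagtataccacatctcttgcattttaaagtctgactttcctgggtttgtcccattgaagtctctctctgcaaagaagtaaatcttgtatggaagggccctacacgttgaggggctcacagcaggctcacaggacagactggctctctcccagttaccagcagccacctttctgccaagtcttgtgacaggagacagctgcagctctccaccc

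Cox6b1 thus holds the ETS letters in this window, and neither Cox6b2 nor Cox8b holds any of the motifs searched.

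The study's own question is whether cells differ with the mother's genotype. The summed level of the 83 genes was slightly higher with the null mother in 5 of 6 types at E14.5 and in 11 of 12 types at E18.5. The ratios of null over heterozygous mother ran from 0.987 to 1.19 and from 0.995 to 1.12. The largest were heart muscle (1.19, interval 1.17 to 1.21), hepatocytes (1.12), monocytes (1.12) and erythroid cells (1.11). E14.5 macrophages and middle neutrophil precursors lay just below 1, at 0.987 and 0.995.

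The complexes did not all share this. Complex III was higher with the null mother in 6 of 6 E14.5 types (1.05 to 1.29) and in 10 of 12 at E18.5. Complex I was higher in 5 of 6 and 12 of 12 types, complex IV in 5 of 6 and 9 of 12, and complex V in 4 of 6 and 11 of 12. Complex II was above 1 in only 2 of 6 types at E14.5 (0.910 to 1.08), but in 11 of 12 types at E18.5 (0.951 to 1.40). Its sum rests on 4 genes. At E14.5 its interval left out 1 only in mesenchyme (0.912 to 0.966), and held 1 in every other type. In E18.5 erythroid cells complex II was the most raised of the complexes and complex IV the least. With TMM scaling the sum of all members was above 1 in 6 of 6 E14.5 types (1.03 to 1.14), macrophages having crossed from 0.987 to 1.03. At E18.5 it was above 1 in 9 of 12 (0.945 to 1.12): erythroid cells (0.945), early precursors (0.992) and basophils and mast cells (0.998) crossed below 1 and middle precursors (1.01) above it.

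**Figure D3:**
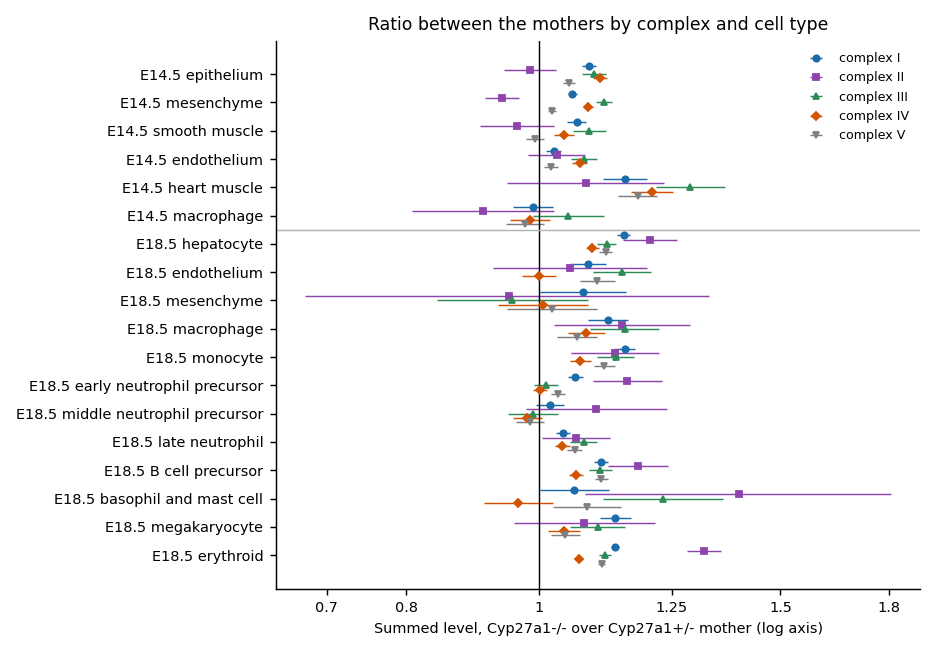
Summed level of each complex with the Cyp27a1-/- mother over that with the Cyp27a1+/- mother (x axis, log scale) by cell type (y axis), with 95% counting intervals. Complex III lies above 1 in all 6 E14.5 types, and complex II lies above 1 in 2 of those 6 and in 11 of the 12 E18.5 types.

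Counts of members have to be read against all genes of the same cell type. At E14.5, 59 of 77 members were above 1 in epithelium (45.9% of all genes), 49 of 77 in mesenchyme (44%), 49 of 74 in endothelium (57.4%) and 62 of 75 in heart muscle (32.6%). At E18.5 the counts were 73 of 77 in hepatocytes (80.5%), 69 of 75 in monocytes (56%), 63 of 75 in late neutrophils (47.4%), 71 of 78 in B cell precursors (53.4%) and 70 of 76 in erythroid cells (76.8%). In the other types the counts were 50 of 76 in smooth muscle (48.6%), 57 of 74 in E18.5 endothelium (49.6%), 21 of 42 in E18.5 mesenchyme (41.1%), 61 of 73 in E18.5 macrophages (62.5%), 52 of 76 in early precursors (63.2%), 30 of 52 in basophils and mast cells (33.4%) and 56 of 75 in megakaryocytes (59.5%). E14.5 macrophages, with 32 of 73 (56.9%), and middle precursors, with 37 of 75 (56.4%), lay below all genes. In hepatocytes and erythroid cells most genes of the cell type lay above 1, and the members' median log2 ratio (0.17 and 0.15) was below that of all genes (0.21 and 0.19). The same order held in E14.5 macrophages, early precursors and middle precursors. In heart muscle the members stood at a median of 0.26 and all genes at -0.13.

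Few members differed by much. Levels higher with the null mother by 25% or more were found for 6 members in epithelium (11.4% of all genes), 7 in mesenchyme (8.07%), 4 in endothelium (14%) and 26 in heart muscle (10.9%). In the E18.5 libraries this held for 10 in hepatocytes (34.2%), 11 in monocytes (15.6%), 3 in late neutrophils (9.32%), 8 in B cell precursors (10.9%) and 10 in erythroid cells (32%). Levels higher by that much with the heterozygous mother were found for 0 members in epithelium (8.71% of genes), 1 in mesenchyme (7.83%), 0 in E14.5 endothelium (7.38%) and 4 in heart muscle (29.3%), and for 0 in hepatocytes (4.44%), 1 in monocytes (10.8%), 0 in late neutrophils (11.4%), 0 in B cell precursors (9.3%) and 0 in erythroid cells (4.49%).

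Most of the lower members at E18.5 lay in types with few cells. In E18.5 mesenchyme 4 of 42 members were higher by 25% (15.7% of genes) and 6 as much lower (18.8%). In basophils and mast cells these were 9 and 6 of 52 (11.8% and 33.1%), and in megakaryocytes 14 and 3 of 75 (19.8% and 12.3%). The counts were 10 and 1 in E18.5 macrophages (22.4% and 10.3%), 3 and 1 in middle precursors (15.4% and 8.81%), 3 and 0 in early precursors (15.3% and 4.68%) and 8 and 0 in E18.5 endothelium (12.8% and 14.3%). At E14.5 they were 3 and 2 in smooth muscle (11% and 11%) and 2 and 1 in macrophages (18.8% and 11.6%). Heart muscle had the most, 26 of 75 members, on 37 cells of the null mother; TMM scaling moved its members' median log2 ratio to 0.19 and that of all genes to -0.19.

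At E14.5 many members lay on the same side in several types. The types of an age come from the same pair of libraries and are not replicates of each other. Among the 4 types with at least 1000000 UMIs in both libraries (epithelium, mesenchyme, smooth muscle and endothelium), 37 of 74 members were higher with the null mother in each, against 14% of all genes, and 10 were lower in each, against 21.6%. The higher ones were 17 of 35 of complex I, 0 of 4 of complex II, 5 of 8 of complex III, 10 of 12 of complex IV and 5 of 15 of complex V. Uqcr11, a small subunit of complex III, was higher in all 6 types, from 1.18 to 1.65, each with its interval above 1, and so was Cox8a (1.06 to 1.24). Atp5k, subunit e of the ATP synthase, was higher in 6 of 6 types (1.13 to 1.44). The lower ones were Ndufs1, Ndufa10, Ndufc2, Ndufv2, Sdhd, Uqcrc2, Cox5a, Atp5c1, Atp5f1 and Atp5g3. Of these, Ndufv2 carries an iron-sulphur cluster, Uqcrc2 is a core protein of complex III and Atp5c1 the central stalk of the synthase. Core subunits lay on both sides, since Uqcrc1, also a core protein of complex III, was among the higher ones. Sdhd, a membrane anchor of complex II, was at 47.6 and 37.0 CPM in mesenchyme, a ratio of 0.776 (0.703 to 0.857).

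The members that were higher in all 4 types had shorter annotated lengths than the rest. Their median annotated length was 571 bases, against 906.5 bases for the 10 lower ones. Of members under 1000 bases 33 of 54 (61.1%) were higher in each type, and of longer members 4 of 19 (21.1%). Cytosolic ribosomal protein genes under 1000 bases gave 40 of 65 (61.5%) and longer ones 7 of 15 (46.7%), so that list was high at both lengths. Other genes gave 244 of 1400 (17.4%) when short and 11.9% when long. At E18.5 the members' counts were 13 of 54 short and 3 of 19 long ones, against 14.8% and 11.6% of all genes, and short ribosomal genes gave 2 of 65 higher and 13 of 65 lower. Members and ribosomal genes are abundant as well as short, and depth differed between the libraries, though not in one direction. The median cell was deeper with the heterozygous mother in epithelium (23490 and 22610 UMIs) and mesenchyme (16690 and 15220). It was deeper with the null mother in smooth muscle (12960 and 16480) and endothelium (14910 and 18860). The part of length or depth in the ratios was not tested. The limit of 1000 bases was chosen after the data were seen. A gene's length was the median over its annotated protein-coding transcripts, which need not be the length of the transcript counted here. It was 651 bases for Ndufs1, which encodes the largest iron-sulphur subunit of complex I, and 2413 bases for Ndufb2. Some members may therefore lie on the wrong side of the limit.

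**Figure D4:**
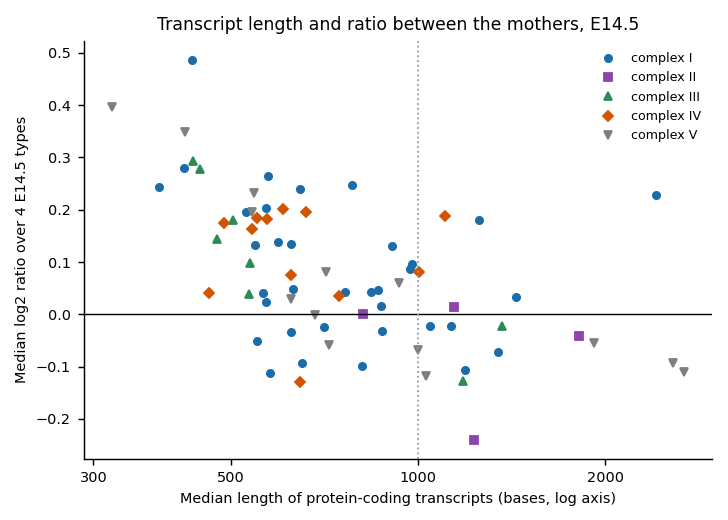
Median length of the annotated protein-coding transcripts of each member (x axis, bases, log scale) against the median log2 ratio of null over heterozygous mother over epithelium, mesenchyme, smooth muscle and endothelium at E14.5 (y axis), 1 point per gene, shaped by complex. Most points left of 1000 bases lie above 0 and most points right of it below 0.

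In the E18.5 libraries other members led. Across 9 types with at least 1000000 UMIs, 16 of 74 members were higher with the null mother in each, against 12.7% of genes, and 0 were lower in each, against 1.93%. Uqcrc1 (ENSMUSG00000025651, chr9:108936633-108949623, plus strand), a core protein of complex III, was the one member past 1.5-fold in 3 types. It lay at 176 and 254 CPM in hepatocytes, at 150 and 232 CPM in monocytes, at 143 and 208 CPM in B cell precursors, at 158 and 239 CPM in erythroid cells and at 61.8 and 87.8 CPM in late neutrophils. Megakaryocytes had 151 and 300.4 CPM. In all 10 types where it was measured the value with the null mother was the higher, with ratios from 1.29 to 1.98, a median of 1.43 and every interval above 1. At E14.5 it ran from 0.956 to 1.252.

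Uqcrc1 was higher with the null mother in every type measured under each other way of counting that was run. In cells read as male it was higher in 9 of 9 types (1.24 to 1.72), with TMM scaling in 10 of 10 (1.29 to 2.06), and as a mean over cells in 10 of 10 (1.04 to 2.16). Ndufv1, the NADH-binding core subunit of complex I, went the same way in 10 of 10 types (1.14 to 1.53), with 106 and 141 CPM in hepatocytes and 142 and 183 CPM in erythroid cells. Sdhc, the other membrane anchor of complex II, was higher in 10 of 10 types (1.06 to 1.47), with 5 intervals above 1. Its largest ratio was in early neutrophil precursors (59.3 and 87.0 CPM). Sdhc was not recounted in the other ways.

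Cox7a2l lay on opposite sides at the 2 ages in most types. Cox7a2l, which joins complexes III and IV into supercomplexes, was lower with the null mother in 10 of 12 types at E18.5, from 0.716 to 1.05 with 8 intervals below 1, but higher in 6 of 6 types at E14.5 (1.05 to 1.18). In monocytes it was at 499 and 358 CPM, in E18.5 macrophages at 423 and 326 CPM and in B cell precursors at 678 and 585 CPM, whereas E14.5 mesenchyme had 365 and 417 CPM. It was the member with the smallest ratio in 5 of the E18.5 types. Atp5k was at 167 and 222 CPM in E14.5 mesenchyme. At E18.5 it was above 1 in 2 of 11 types (0.569 to 1.17, median 0.953), but only 3 of the 11 intervals lay below 1, and the smallest value, in basophils and mast cells, rests on 54 and 18 UMIs. The ages differ in tissue and in library, and the difference between them was not tested.

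**Figure D5:**
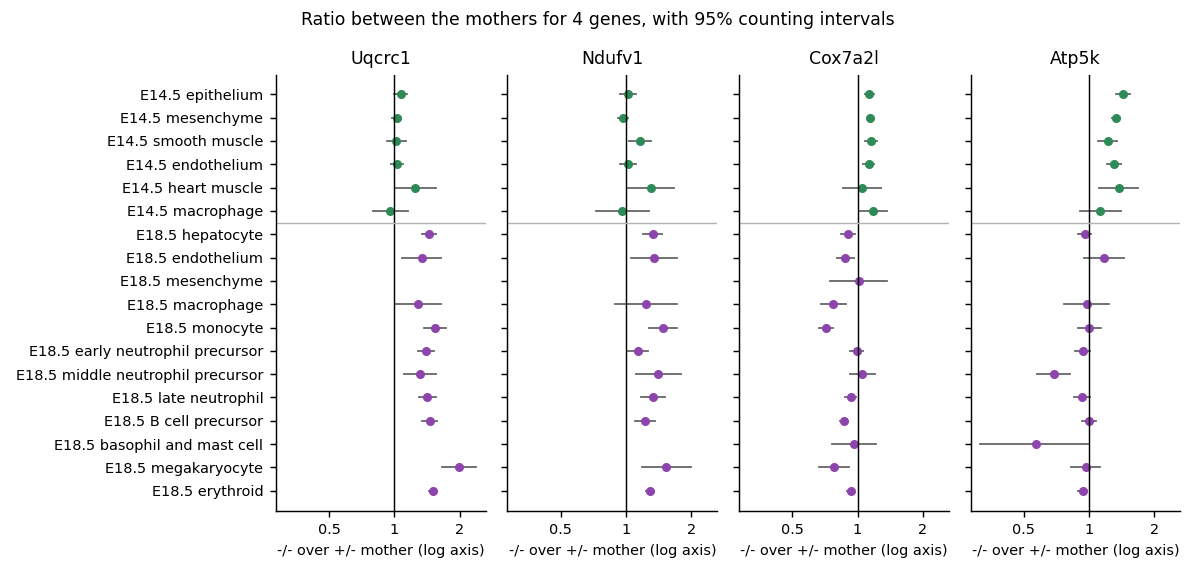
Ratio of the level with the Cyp27a1-/- mother over that with the Cyp27a1+/- mother (x axes, log scale) for 4 genes by cell type (y axis), with 95% counting intervals, where the gene was measured. Uqcrc1 lies above 1 in all 10 E18.5 types, and Cox7a2l lies above 1 in the 6 E14.5 types and below 1 in 10 of 12 E18.5 types.

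Among the largest and smallest ratios of a cell type several other members appeared. Ndufa3, an accessory subunit of complex I, had the largest ratio in E14.5 mesenchyme (95.3 and 133 CPM, 1.40) and endothelium (94.5 and 147 CPM, 1.55). Atp5g1 had the smallest in E14.5 endothelium, 0.831 (0.796 to 0.867), and Uqcrc2 in epithelium, 0.886. In heart muscle Ndufs4, another accessory subunit of complex I, was lowest at 0.693 (0.514 to 0.923). Sdhc was lowest in E14.5 macrophages (0.714) and Sdha, the flavoprotein of complex II, in megakaryocytes (0.716). Ndufa8 was the lowest in E18.5 endothelium (0.809), early precursors (0.887) and late neutrophils (0.848). Small counts limit the rest: Atp5s in B cell precursors had 30 and 52 UMIs (1.65, 1.03 to 2.68), and Ndufb6 in E18.5 mesenchyme 52 and 24 UMIs (0.673, 0.397 to 1.11), an interval that holds 1.

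Other mitochondrial lists did not follow the members at E14.5. The members' median log2 ratio was above 0 in 5 of 6 types, that of mitochondrially encoded subunits in 1 of 6, of tricarboxylic acid cycle enzymes in 1 of 6 and of mitochondrial ribosomal proteins in 0 of 6. Cytosolic ribosomal proteins were above 0 in 6 of 6 and all measured genes in 2 of 6. At E18.5 the members (10 of 12), tricarboxylic acid cycle enzymes (9 of 10), assembly factors (9 of 10), mitochondrial ribosomal proteins (9 of 11) and glycolytic enzymes (10 of 12) were mostly above 0, as was the median of all genes (8 of 12). Mitochondrially encoded subunits (6 of 12) and cytosolic ribosomal proteins (3 of 12) were not. Nuclear and mitochondrially encoded subunits lay on opposite sides of 0 in some types and on the same side in others. In E18.5 hepatocytes the mitochondrially encoded ones took 10.6% of UMIs with the heterozygous and 8.79% with the null mother, and the nuclear ones 3.28% and 3.68%. In late neutrophils both were higher with the null mother, with median log2 ratios of 0.29 for the mitochondrially encoded and 0.09 for the nuclear subunits.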

How the data were processed

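The authors deposited 1 matrix of raw UMI counts per gene and cell, made with Cell Ranger 3.0.0, Seurat 4.3.0 and mm10, per the submitters' processing notes. Per the labels' protocols, lungs were digested, red cells lysed and 10x libraries made. The deposited counts held 43351 cells, none under 500 UMIs, and 0 columns were left unmapped. Cells were typed by the number of marker genes with a UMI; limits were set after marker counts were seen. Cells that met more than 1 list were left out, apart from nested types, and no doublet caller was run. Types needed 30 cells in each library. UMIs were summed per type and library and divided by the total. Intervals were exact (Poisson, Clopper-Pearson or conditional binomial, 95%). There was 1 library per group and no test. edgeR 4.0.16 gave TMM factors only. Positions and lengths came from GENCODE (GRCm38). Named are isoform families, the most abundant and most variable member per complex, the extreme ratios per type, and members past 1.5-fold in 3 types; other members named were chosen after their values were seen. Members and lists were chosen with earlier results of these data known. Computations used Python 3.11.15 and were tested on simulated data. Alternatives changed the scaling, the total, the marker limit, cell filters and thresholds.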

Additional observations from a re-analysis of the deposited data

How the results depend on the processing

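With 1 library per group, library and mother cannot be told apart, and no replicate could be left out. No paired analysis was possible because each group has 1 sample. Heart muscle kept the highest share at E14.5, and hepatocytes at E18.5, under every setting that gave them a value; heart muscle had too few cells for the filter on genes and for male cells. For the ratio of summed members (null over heterozygous mother), TMM scaling gave 1.12 in epithelium, 1.08 in mesenchyme, 1.14 in heart muscle, 1.03 in hepatocytes, 1.08 in monocytes, 1.04 in late neutrophils and 1.07 in B cell precursors. It took erythroid cells (0.945), early neutrophil precursors (0.992) and basophils and mast cells (0.998) below 1, and E14.5 macrophages (1.03) and middle precursors (1.01) above 1. A total without haemoglobin and mitochondrially encoded genes gave 1.09 in hepatocytes, 1.10 in monocytes, 1.03 in late neutrophils, 1.07 in B cell precursors and 1.04 in erythroid cells. With 1 more marker the ratio was 1.12 in hepatocytes, 1.07 in late neutrophils, 1.06 in erythroid cells and 0.978, a reversal, in basophils and mast cells. Cells with 1000 genes and under 10% mitochondrial UMIs gave 1.06 in hepatocytes, 1.01 in late neutrophils, 1.08 in B cell precursors and 1.09 in erythroid cells. Cells read as male gave 1.06 in E14.5 mesenchyme, 1.09 in hepatocytes, 1.04 in late neutrophils and 1.08 in B cell precursors. With the deepest cells (past the 95th percentile of UMIs) left out, E14.5 endothelium had 1.07 and heart muscle 1.252. Means over cells gave 1.07 in E14.5 endothelium, 1.14 in hepatocytes, 1.10 in monocytes and 1.07 in late neutrophils. Without shared barcodes, added after the data were seen, E14.5 endothelium had 1.06.

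Members higher by 25% or more with the null mother, summed over types, numbered 48 at E14.5 and 93 at E18.5, and those as much lower 8 and 18. Of 452 and 848 member values (a member in a type) these were 10.6% and 10.97% higher, against 11.5% and 19.0% of all genes, and 1.77% and 2.12% lower, against 9.47% and 8.91%. The E14.5 counts were 21 and 3 with the filter on genes and 22 and 4 in male cells, both without heart muscle; over the types left, the counts before were 22 and 4, and 20 and 3. All genes gave 11.9% and 8.78% with the filter and 13.2% and 12.0% in male cells. The E14.5 lower count was 4 without the deepest cells (7 before, in the types left), 14 without shared barcodes, 23 as means over cells and 4 with a minimum of 200 UMIs, where all genes gave 9.77%, 10.2%, 13.7% and 5.21%. Without the deepest cells the E14.5 higher count was 60 of 378, 15.9% against 10.5% of all genes. Before, in the types left, it was 46 of 379, 12.1% against 10.9%. A minimum of 200 UMIs gave 32 of 387, 8.27% against 7.51%. Under the other settings run at E14.5 the members' share was the smaller. The E18.5 lower count was 9 without the deepest cells, 4 in male cells (3 before, in the types left), 30 with a minimum of 10 UMIs and 6 with 200, where all genes gave 8.84%, 11.7%, 16.5% and 4.81%. With a fold of 1.5 the counts were 8 higher and 1 lower at each age (all genes 3.79% and 2.39%, then 5.85% and 2.41%). Members higher in hepatocytes numbered 73 with TMM scaling (32.8% of all genes) and 8 with a fold of 2 (19.2%). Members lower in late neutrophils numbered 11 (18.1%) and 35 (27.0%), and in middle precursors 1 (11.9%) and 1 (11.5%), or 3 with 1 more marker (16.2%). The cause of the other shifts was not tested.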

Other observations

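Some E18.5 cells that met no marker list had at least 2 UMIs of Siglech, a surface lectin known from plasmacytoid dendritic cells. In their summed counts Cox6a2 gave most of the COX6A UMIs and Cox6a1 the rest. This set was chosen after the values were seen. With the heterozygous mother 40 such cells held 129 Cox6a2 UMIs of 176 COX6A UMIs, 73.3% (66.1% to 79.7%). With the null mother 50 such cells held 255 of 329, 77.5% (72.6% to 81.9%). In unassigned cells without a Siglech UMI the share was 1.20% (53 of 4407) and 1.10% (53 of 4815). The median depth of the Siglech cells was 3675 and 4133.5 UMIs, against 2662 and 1774 in the cells without. These cells gave 129 of the 348 and 255 of the 557 Cox6a2 UMIs of their libraries.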
